A study of Mus musculus with 6 samples.

Results

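Fgf21, Gdf15 and Adm2 encode secreted hormones of cellular stress, and Fgfr1, Klb, Calcrl, Ramp1, Ramp2 and Ramp3 encode components of the receptors for FGF21 and ADM2. These 9 genes, 3 hormones and 6 receptor components, were found by symbol among 35474 gene symbols measured in mouse gastrocnemius, the large calf muscle. They were taken up because earlier values of the same comparison showed the hormone transcripts higher in Ogg1Tg muscle, so that difference is described below and supports nothing further. All 9 genes had a mean of at least 1 scaled read over the 6 libraries and entered the fit across all genes.

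RNA came from 3 Control and 3 Ogg1Tg male mice of C57BL/6J background, aged 20 weeks, untreated and fed chow. Ogg1Tg mice carry human OGG1-1a, a DNA glycosylase that removes oxidised guanine, fused to a mitochondrial translocation signal and driven by the CMV/AG promoter. That promoter is not specific to muscle, and other tissues were not analysed here. The libraries held 45189860 to 56126407 reads in named genes. Values are reads scaled by 1 factor per library, with mean ± SD and n = 3 per group, and nothing in the labels says whether any mice shared a litter. Mouse Ogg1 measured 154, 225 and 193 in Control and 176, 201 and 193 in Ogg1Tg libraries, which does not measure the human transgene. The muscle fibre markers Acta1, Ckm, Myh1, Myh2, Myh4, Myh7, Tnnt3 and Mb were present in every library. Ogg1Tg replicate 3 stood apart, with Spearman correlations to the others across genes of 0.946 to 0.953 against 0.975 to 0.983 among the other 5. In that library the summed scaled reads of 10 lymphocyte and neutrophil markers were 8152, against 37.4 to 106 in the other 5, and those of 7 adipocyte markers were 11309, against 3204 to 4205. Log2 fold changes of the 9 genes are therefore also given without it, as are some further results. Results for other genes include it unless stated.

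FGF21 is an endocrine fibroblast growth factor best known as a liver hormone of fasting, and skeletal muscle makes it when mitochondria or amino acid supply are disturbed. It signals through FGFR1 only where the co-receptor beta-Klotho, encoded by Klb, is also present, as in adipocytes and some neurons. GDF15, a distant member of the TGF-beta superfamily, acts on the brainstem receptor GFRAL together with RET and lowers food intake. ADM2, also called intermedin, belongs to the calcitonin peptide family and binds CALCRL, a G protein-coupled receptor whose ligand choice is set by a partner protein, RAMP1, RAMP2 or RAMP3. ATF4, the transcription factor of the integrated stress response, is a known activator of Fgf21 and Gdf15.

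The sequence upstream of each hormone gene is shown because transcripts of all 3 genes were higher in the same libraries. Each run is the 250 bases before the RefSeq start on GRCm38.p6, read 5′ to 3′ on the gene's strand. RefSeq promoters were found for 7 of the 9 genes, and none for Fgfr1 and Ramp2, which were therefore not searched. Capitals mark matches to TGATGNAA, the core of the element bound by ATF4 with C/EBP factors, and to TATAAA, the TATA box, on either strand.
Fgf21, minus strand, chr7:45615491-45615740: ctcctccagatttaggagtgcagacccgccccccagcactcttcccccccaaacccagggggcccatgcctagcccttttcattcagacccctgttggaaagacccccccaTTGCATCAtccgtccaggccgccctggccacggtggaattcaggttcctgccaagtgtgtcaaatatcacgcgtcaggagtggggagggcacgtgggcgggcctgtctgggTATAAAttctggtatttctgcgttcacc
Gdf15, minus strand, chr8:70632457-70632706: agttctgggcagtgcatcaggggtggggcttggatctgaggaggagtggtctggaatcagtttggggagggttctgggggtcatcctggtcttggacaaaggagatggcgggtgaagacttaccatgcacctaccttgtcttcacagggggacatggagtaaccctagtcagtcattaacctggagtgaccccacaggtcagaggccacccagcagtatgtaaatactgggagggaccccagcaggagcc
Adm2, plus strand, chr15:89322470-89322719: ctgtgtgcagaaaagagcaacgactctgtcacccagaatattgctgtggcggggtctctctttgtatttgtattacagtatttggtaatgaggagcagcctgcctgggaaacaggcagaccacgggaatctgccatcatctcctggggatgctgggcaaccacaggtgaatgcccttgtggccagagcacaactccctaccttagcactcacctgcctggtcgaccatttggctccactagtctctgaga

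In the Fgf21 window, TTGCATCA, a match to TGATGNAA on the opposite strand, ran from 139 to 132 bases before the start, and TATAAA from 28 to 23 bases before it. A CACGTG, the palindromic E-box, lay 50 to 45 bases before the Fgf21 start. The windows shown for Gdf15 and Adm2 held no match to any of these 3 motifs nor to the cyclic AMP response element, spelled TGACGTCA, and that says no more than that these letters are not in these windows. RefSeq gives Gdf15 a further start downstream, at 70632095, with CACGTG 83 to 78 bases before it. Among the receptor genes with a window, Calcrl had TGATGTAA 75 to 68 bases before its RefSeq start, which differs from its GENCODE start. Over 32851 upstream windows of 250 bases, 3.45% held TGATGNAA on either strand, 12.4% TATAAA, 6.02% CACGTG and 1.55% TGACGTCA. Counted by gene, 3.91% of 27025 symbols had TGATGNAA, and among the 72 genes higher in Ogg1Tg muscle for which a window was found it was 7, which is 9.72%. The 7 were Asns, Chac1, Fgf21, Gars, Pck2, Pycr1 and Slc7a11. For CACGTG the shares were 11.1% of the higher genes and 6.86% of all symbols, for TATAAA 8.33% and 14.3%, and for TGACGTCA 2.78% and 1.77%, none of which was tested. These matches are descriptions and not binding sites.

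Transcripts of all 3 hormones were close to absent in Control muscle and present in every Ogg1Tg library. Of the 9 genes, 3 passed an adjusted p under 0.05 in the limma fit over all genes, each of them higher, against 0.395% of 23312 genes called higher. Without Ogg1Tg replicate 3, 1.86% of 22815 genes were called in either direction. The members were chosen on this comparison, so nothing is read from that count. The median log2 fold change of the 9 was 0.46, beside -0.02 over all genes tested.

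Fgf21 measured 0, 1.40 and 0 scaled reads in the Control mice, listed by replicate number here and below, and 1125, 800 and 1290 in the Ogg1Tg mice. Every Ogg1Tg library lay far above the Control libraries, and replicate 3 was the highest. The gene had 1 Control read and 2900 Ogg1Tg reads, a ratio after scaling of 2410, with a 95% exact binomial interval from 432 to 95208 that covers counting error alone. On the log2(value + 1) scale, which understates the change of a gene near 0, the difference was 9.62 ± 0.45 (SE), and 9.47 ± 0.57 without Ogg1Tg replicate 3.

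Gdf15 measured 2.77, 8.39 and 3.92 in Control libraries, from 11 reads in all, and 305, 134 and 174 in Ogg1Tg libraries. Its groups did not overlap, and the highest Ogg1Tg value was in replicate 1, which had neither the most Fgf21 nor the immune and adipocyte markers of replicate 3. The mean was 5.03 ± 2.97 in Control and 204 ± 89.9 in Ogg1Tg muscle. The log2 fold change was 5.11 ± 0.49 (SE), a fold of 34.6, and 5.18 ± 0.57 without Ogg1Tg replicate 3.

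Adm2 had the lowest values of the 3 hormones in Ogg1Tg muscle. It measured 0, 2.80 and 0 in Control libraries and 38.9, 26.5 and 35.2 in Ogg1Tg libraries. The groups did not overlap, but the Control group rested on 2 reads, both in replicate 2. With 90 reads in the Ogg1Tg group the ratio was 37.4, with a 95% exact binomial interval from 10.1 to 313. The log2 fold change was 4.45 ± 0.71 (SE), and 4.41 ± 0.86 without Ogg1Tg replicate 3. Its limma call was lost in 10 of 16 alternative fits, edgeR on recovered reads among them, with adjusted p from 0.0017 to 0.15 over the 16, whereas Fgf21 and Gdf15 kept theirs in all 16.

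**Figure D1:**
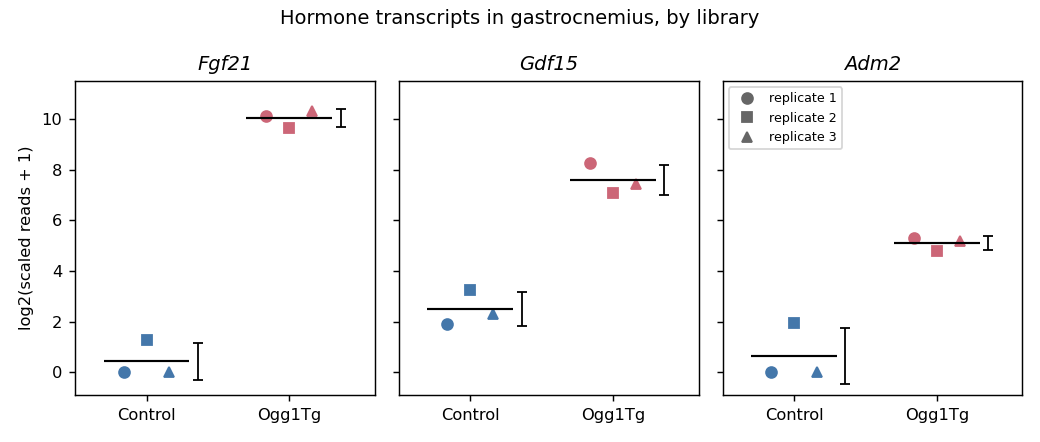
Scaled reads of Fgf21, Gdf15 and Adm2 as log2(value + 1) in each library, with Control in blue, Ogg1Tg in red, the marker shape giving the replicate, a black line at the group mean and a bar of 1 SD (n = 3). In each panel the 3 Ogg1Tg libraries lie above the 3 Control libraries, and for Fgf21 and Adm2 Control replicates 1 and 3 are at 0.

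Markers of the liver, the usual source of FGF21, were high in libraries of both groups. Alb, the serum albumin gene made by hepatocytes, measured 1140, 199 and 77.0 in Control libraries and 139, 1027 and 1096 in Ogg1Tg libraries. All 6 hepatocyte markers were detected, and their scaled reads were summed in each library. The sum was 1697, 304 and 108 in Control libraries beside Fgf21 values of 0, 1.40 and 0, and 187, 1486 and 1735 in Ogg1Tg libraries beside Fgf21 values of 1125, 800 and 1290. The library with the highest sum, Ogg1Tg replicate 3, was also the highest for Fgf21, whereas Control replicate 1 had a high sum with 0 Fgf21 reads and Ogg1Tg replicate 1 a low sum with 1125. The part of these markers in the Fgf21 values was not tested. None of the 6 passed limma (0 had an unadjusted p under 0.05), and none was called by edgeR or DESeq2.

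Levels can be compared between the genes only per length, here as RPKM, the reads per kilobase of exons scaled to the total of reads in named genes. That total is not the factor behind the scaled reads, so these scales can differ between groups. Calcrl had means of 3.48 and 5.86 RPKM in Control and Ogg1Tg muscle, beside a limma fold of 1.38 on scaled reads. In Control muscle Fgfr1 was highest at 8.06 ± 0.89, followed by Ramp1 at 4.47 ± 1.44 and Calcrl at 3.48 ± 0.42, which lay within their spread, and by Ramp2 at 1.63 ± 0.064. Ramp3 at 0.087 ± 0.053 and Klb at 0.082 ± 0.016 were far lower and within each other's spread. The hormones closed the order, with Gdf15 at 0.040 ± 0.024, Adm2 at 0.011 ± 0.018 and Fgf21 at 0.0072 ± 0.013, again within each other's spread.

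In Ogg1Tg muscle Fgf21 headed that order on the per-length scale. Its level was 20.4 ± 8.84 RPKM, which placed it at rank 1365 among 25031 genes with a level above 0, at percentile 94.5. In Control muscle it had ranked 23169 of 24026. Fgfr1 followed at 7.79 ± 0.61, Calcrl at 5.86 ± 1.98, Ramp1 at 2.63 ± 0.61 and Ramp2 at 2.51 ± 0.41, with Calcrl and Fgfr1, and also both Ramp genes, within their spread. Gdf15 at 1.92 ± 0.80 ranked 9336 and came next, within the spread of both Ramp genes, followed by Adm2 at 0.46 ± 0.15. Ramp3 and Klb were the lowest of the 9 here, both at 0.15, with SDs of 0.081 and 0.19. With the longest annotated transcript as the length, Ramp2 moved to 3.65 ± 0.14 in Control and 5.6 ± 0.91 in Ogg1Tg muscle, so its place beside Calcrl and Ramp1 depends on the length used.

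**Figure D2:**
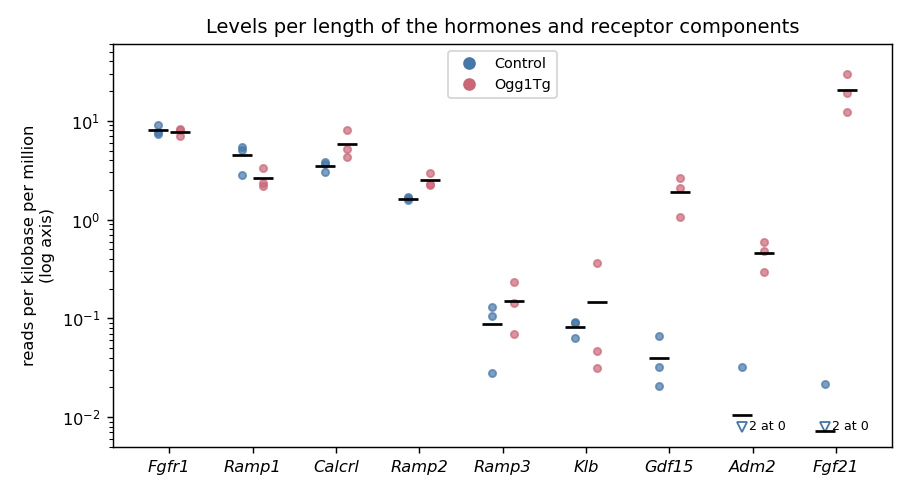
RPKM (log axis) for the 9 genes, ordered by their Control mean, with 1 point per library, black lines at group means and open triangles where libraries are at 0. Fgf21 moves from the lowest Control mean, 0.0072, to the highest Ogg1Tg mean, 20.4, while Fgfr1 is at 8.06 and 7.79. RPKM is scaled to total named reads, and on scaled reads the Fgfr1 means were 5450 in Control and 4558 in Ogg1Tg muscle.

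The receptor components showed differences of another order of size from those of the hormones, and none of the 6 passed limma (3 at an unadjusted p under 0.05, none called by edgeR and Calcrl alone called by DESeq2). Fgfr1, the tyrosine kinase receptor through which FGF21 signals, measured 5485, 4956 and 5910 in Control and 5084, 5404 and 3185 in Ogg1Tg libraries. The groups overlapped, and Ogg1Tg replicate 3 was the low value. The log2 fold change was -0.29 ± 0.20 (SE), and -0.05 ± 0.099 without that library. Most muscle fibre markers were lower in the same library, where their median lay -0.82 from the Control mean in log2 beside -0.77 for Fgfr1. Myh7 was higher there, at 50855 against 10585, 35642 and 35632 in Control libraries. None of the 8 passed limma (2 at an unadjusted p under 0.05) and none was called by edgeR. DESeq2 called Mb, lower in Ogg1Tg muscle, and Myh7, higher. The part of those markers in the Fgfr1 result was not tested.

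Klb, the co-receptor without which FGFR1 does not respond to FGF21, was near the limit of detection in muscle of either genotype, with 56 reads in Control and 94 in Ogg1Tg libraries. It measured 20.8, 28.0 and 27.4 in Control and 8.89, 14.6 and 75.4 in Ogg1Tg libraries. Ogg1Tg replicates 1 and 2 lay below every Control library and replicate 3 above them all, so the mean was higher in Ogg1Tg muscle (33.0 ± 36.9 against 25.4 ± 3.99) while the log2 fold change was -0.20 ± 0.72 (SE), and -1.08 ± 0.50 without replicate 3. On recovered reads edgeR gave 0.51, so the direction for Klb depends on the fit. The 7 adipocyte markers moved with it, their median log2 differences from Control being -0.40, -0.31 and 2.10 in Ogg1Tg replicates 1, 2 and 3, beside -1.41, -0.75 and 1.55 for Klb. Each of the 7, Adipoq, Plin1, Cidec, Fabp4, Lep, Cfd and Retn, was highest in replicate 3, and their part in the Klb values was not tested. In whole muscle, fewer cells of a type and less RNA per cell cannot be told apart. The ratio of Klb to Adipoq, per length, was 0.036 ± 0.010 in Control and 0.023 ± 0.0057 in Ogg1Tg libraries. By library it was 0.025, 0.035 and 0.046 against 0.017, 0.027 and 0.025, so the groups overlapped. Ratios of Klb to the other adipocyte markers were not taken.

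Calcrl, the receptor that ADM2 shares with CGRP and adrenomedullin, measured 1058, 1200 and 1223 in Control and 1580, 1437 and 1796 in Ogg1Tg libraries. The groups did not overlap, as held for 7.03% of all genes in the higher direction. The log2 fold change was 0.46 ± 0.13 (SE), a fold of 1.38, and 0.38 ± 0.11 without Ogg1Tg replicate 3. Calcrl is mainly known from endothelial cells, whose 12 markers had a median of -0.13 in log2 fold change. Of these 1 lay above 0 and none was called (limma, 1 at an unadjusted p under 0.05, none by edgeR or DESeq2). Their summed level was 24729 to 30643 in Control and 24359 to 27111 in Ogg1Tg libraries. Per length, the ratio of Calcrl to Cdh5, the endothelial cadherin, was 0.21, 0.18 and 0.19 in Control and 0.27, 0.27 and 0.40 in Ogg1Tg libraries. Cdh5 is 1 of the 12 endothelial markers, with a log2 fold change of -0.25 in a list that ran from -0.29 to 0.03. Ratios to the other markers were not taken, and the part of endothelial cells in the Calcrl values was not tested.

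Ramp2, the partner with which CALCRL forms the adrenomedullin receptor of endothelium, measured 373, 378 and 359 in Control and 469, 511 and 447 in Ogg1Tg libraries, without overlap, a log2 fold change of 0.36 ± 0.14 (SE), and 0.40 ± 0.13 without Ogg1Tg replicate 3. Per length, its ratio to Calcrl was 0.52, 0.47 and 0.43 in Control and 0.44, 0.53 and 0.37 in Ogg1Tg libraries, so the groups overlapped. Among the Ogg1Tg libraries, on scaled reads, Calcrl was highest and Ramp2 lowest in replicate 3. Per length Ramp2 was instead highest there, at 2.98 RPKM against 2.28 and 2.26 in replicates 1 and 2.

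Ramp1, which turns CALCRL into the CGRP receptor, went the other way. It measured 616, 1123 and 1019 in Control and 626, 451 and 326 in Ogg1Tg libraries. Control replicate 1 and Ogg1Tg replicate 1 were nearly equal, so the groups overlapped, and the log2 fold change was -0.98 ± 0.28 (SE), a fold of 0.51, and -0.74 ± 0.24 without Ogg1Tg replicate 3. For the 8 mural and smooth muscle markers the median log2 fold change was -0.26, or -0.14 when Ogg1Tg replicate 3 was left out. Of these 1 lay above 0, Cnn1 at 0.28. Their summed level was 31036 to 36732 in Control and 22430 to 30530 in Ogg1Tg libraries, lower in the same direction as Ramp1. Most of that sum was Rgs5, at 20491, 24102 and 22827 in Control and 19795, 18321 and 13909 in Ogg1Tg libraries. None of the 8 passed limma, edgeR or DESeq2 (0 at an unadjusted p under 0.05 in limma), and their part in the Ramp1 values was not tested.

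The ratio of Ramp1 to Ramp2 was lower in every Ogg1Tg library than in any Control library. Ramp1 over Ramp2, per length, was 1.80, 3.25 and 3.10 in Control and 1.46, 0.97 and 0.80 in Ogg1Tg libraries, with no overlap. With longest transcripts the same ratio was 1.05, 1.89 and 1.81 against 0.85, 0.56 and 0.46. The ratio was not tested, and neither gene passed limma. Among single genes 18.3% had groups without overlap in either direction, and no such share was taken for ratios. Ramp3, the partner for a further adrenomedullin receptor, was at the limit of detection, at 2.77, 9.79 and 11.7 in Control and 20.0, 6.61 and 9.05 in Ogg1Tg libraries, from 18 and 32 reads. Its log2 fold change of 0.54 ± 0.69 (SE) was smaller than its error, as was 0.65 ± 0.78 without Ogg1Tg replicate 3. It took 1.31% ± 0.63 of the summed per-length level of the 3 RAMP genes in Control and 2.72% ± 1.22 in Ogg1Tg muscle.

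**Figure D3:**
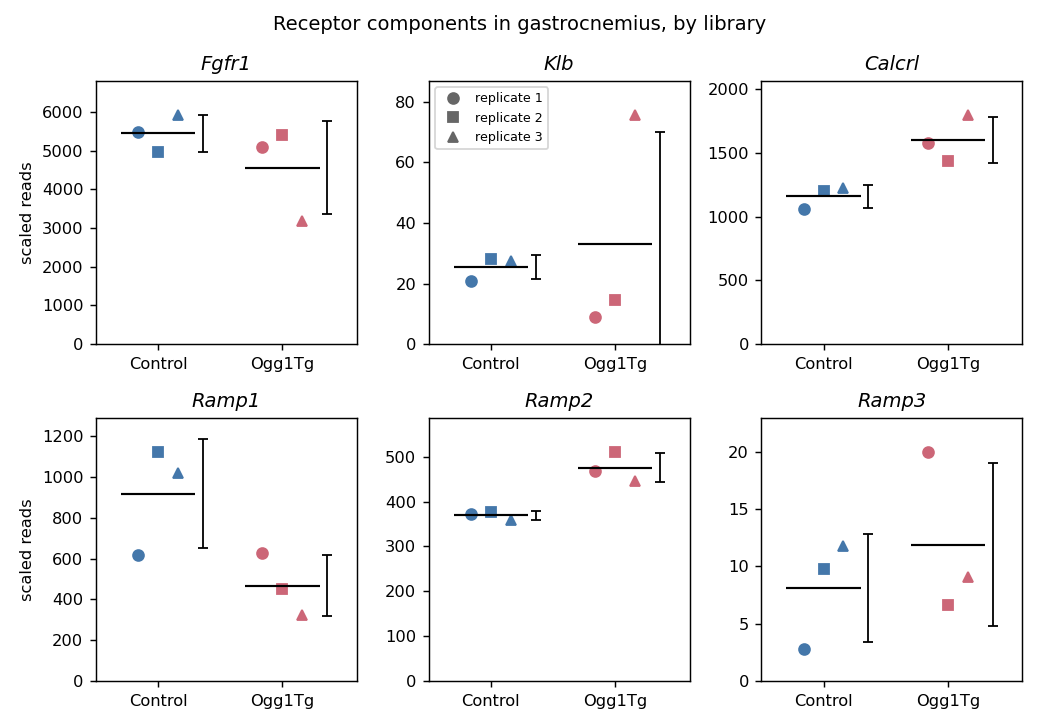
Scaled reads of the 6 receptor components in each library on linear axes from 0, with group means as black lines, bars of 1 SD (n = 3, cut at 0 for Klb) and marker shape for the replicate. Calcrl and Ramp2 are higher in all 3 Ogg1Tg libraries, Ramp1 overlaps through replicate 1 of each group, and Klb is highest in Ogg1Tg replicate 3 at 75.4.

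**Figure D4:**
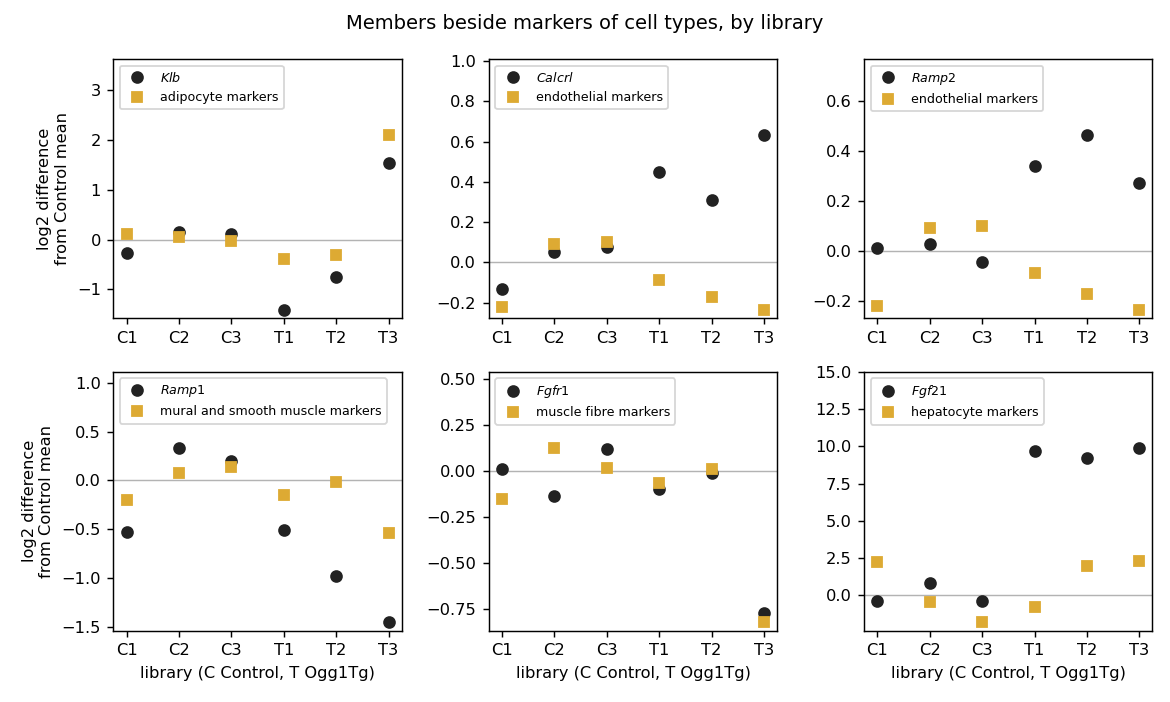
Log2 difference from the Control mean in each library for 6 of the genes (black circles) and the median of a marker list (yellow squares), with C for Control, T for Ogg1Tg and the number for the replicate. Klb and the adipocyte markers are both highest in T3, Fgfr1 and the muscle fibre markers are both lowest there, and Calcrl and Ramp2 are above 0 in T1 to T3 while endothelial markers are below 0.

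None of the other receptor genes listed for the FGF, GDF15 and calcitonin families was called. Receptors of other TGF-beta superfamily ligands were not listed. Gfral, the GDF15 receptor, had 0 reads in all 6 libraries. Ret, its signalling partner, measured 431 ± 32.2 in Control and 521 ± 73.4 in Ogg1Tg muscle (limma adjusted p = 0.58), and Gfra1, a GDNF co-receptor of the same family, 291 ± 51.8 and 346 ± 88.4 (limma adjusted p = 0.75). None of the 5 tested genes of the GDF15 receptor family passed limma (0 had an unadjusted p under 0.05), and none was called by edgeR or DESeq2. Calcr, the calcitonin receptor, measured 16.6, 36.4 and 10.4 in Control and 26.7, 18.5 and 22.1 in Ogg1Tg libraries. Of 5 tested genes of the calcitonin family and its receptors none passed limma (0 had an unadjusted p under 0.05), nor did edgeR or DESeq2 call any. In that list Ackr3, a scavenger receptor for adrenomedullin, measured 875 ± 141 and 649 ± 184, and Crcp, a component needed for CGRP receptor signalling, 489 ± 14.0 and 497 ± 81.6 (limma adjusted p = 0.49 and 0.99). Adm, the adrenomedullin gene closest in function to Adm2, measured 99.8, 58.7 and 78.3 in Control and 94.4, 67.5 and 37.2 in Ogg1Tg libraries.

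In the FGF family 1 further ligand rose. Fgf7, keratinocyte growth factor, a paracrine ligand of FGFR2 made by stromal cells, measured 262, 213 and 384 in Control and 812, 1278 and 734 in Ogg1Tg libraries, a log2 fold change of 1.71 ± 0.27 (SE, limma adjusted p = 0.030, from 2.3e-07 to 0.24 over 16 alternatives, 10 of which called it). It was the single called gene of 18 tested FGF ligands other than Fgf21, beside 0.395% of all genes called higher. Of the 18, 8 lay above 0, with a median of -0.06, and DESeq2 also called Fgf11. Fgf15 and Fgf23, the other endocrine FGF genes of the mouse, had values of 0 to 2.61 and 0 to 2.80. Of 23 FGF receptors, co-receptors and transducers, none passed limma (3 had an unadjusted p under 0.05), nor did edgeR or DESeq2 call any, and their median was -0.16 with 5 above 0. Ptpn11, the phosphatase SHP2 of FGF receptor signalling, measured 8051 ± 475 and 5871 ± 1338 (limma adjusted p = 0.37). Of the other FGF receptor genes, Fgfr4 measured 190, 124 and 184 in Control and 132, 110 and 102 in Ogg1Tg libraries. Fgfr2 measured 11.1, 4.20 and 31.3 in Control and 17.8, 34.4 and 108 in Ogg1Tg libraries. For Fgfr3 the values were 212, 281 and 223 against 160, 187 and 203. Kl, the co-receptor for FGF23, measured 48.5, 26.6 and 18.3 against 63.3, 119 and 51.3.

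Of 20 genes that respond to FGF and ERK signalling, Myc, a growth-promoting transcription factor, rose, from 247 ± 28.8 to 830 ± 4.26 (limma adjusted p = 0.0010), none fell and 19 did not pass, with 8 above 0 and a median of -0.06. The share of all genes called higher was 0.395%. Of the 25 transducers of Gs and cyclic AMP, through which CALCRL signals, none passed limma (6 had an unadjusted p under 0.05), with none called by edgeR and Pde4a and Adcy1 called by DESeq2. Their median was -0.15, with 8 above 0. Pde4d, a phosphodiesterase that degrades cyclic AMP, measured 16197 ± 1083 and 12580 ± 4939, and Prkar2a, a regulatory subunit of protein kinase A, 14645 ± 1002 and 10341 ± 3245 (limma adjusted p = 0.60 and 0.42). Without Ogg1Tg replicate 3, 4 of the 25 were called, 2 higher and 2 lower.

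Among 21 known transcriptional regulators of Fgf21 and Gdf15, 2 rose, none fell and 19 did not pass, with 11 above 0 and a median of 0.14. Over all genes tested, 0.395% were called higher and 0.15% lower. Atf5, a transcription factor of the mitochondrial unfolded protein response, rose from 2332 ± 451 to 11431 ± 2423, or 4.89-fold (limma adjusted p = 0.0010). Cebpg, a dimer partner of ATF4, rose from 3705 ± 95.8 to 6634 ± 937, or 1.78-fold (limma adjusted p = 0.039, from 1.4e-08 to 0.29 over 16 alternatives, 9 of which called it). Atf4 measured 4564, 4391 and 4156 in Control and 8471, 7236 and 5719 in Ogg1Tg libraries, without overlap, and did not pass over all 6 libraries (limma adjusted p = 0.14). It was called in 3 of 16 alternatives, with a limma adjusted p of 0.0020 without Ogg1Tg replicate 3 and a range of 0.00037 to 0.57 over the 16. Ddit3, which encodes CHOP, measured 376, 471 and 412 against 861, 577 and 615 (limma adjusted p = 0.21, called in 1 of 16 alternatives). DESeq2 called Atf4, Ddit3 and Myog, the myogenic factor myogenin, in addition to Atf5 and Cebpg. Ppara, the fasting regulator of hepatic Fgf21, measured 646, 822 and 801 against 799, 365 and 465.

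Of 12 genes for hormone processing and breakdown none passed limma (3 had an unadjusted p under 0.05), with none called by edgeR and Ide called by DESeq2. Ide, insulin-degrading enzyme, measured 17980 ± 1424 in Control and 9059 ± 1876 in Ogg1Tg muscle, a log2 fold change of -1.01 ± 0.18 (SE, limma adjusted p = 0.057). Ide was called lower in 6 of 16 alternatives, with a limma adjusted p of 0.0023 without Ogg1Tg replicate 3. Ece1, a peptide-processing protease, measured 7061 ± 426 and 5036 ± 1487 (limma adjusted p = 0.41). The median of these 12 was -0.06, with 4 above 0.

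Further secreted factors of muscle were also called. Of 32 tested, 2 rose, none fell and 30 did not pass, beside 0.395% of all genes called higher and 0.15% called lower. Of the 32, 14 lay above 0, with a median of -0.02, and DESeq2 also called Igf2 and Pthlh. Ostn, which encodes the muscle peptide musclin, rose from 1524 ± 338 to 4042 ± 667, or 2.67-fold (limma adjusted p = 0.012). Stc2, stanniocalcin 2, a secreted glycoprotein and ATF4 target, rose from 171 ± 22.4 to 592 ± 165, or 3.38-fold (limma adjusted p = 0.011). Neither Ostn nor Stc2 was called without a variance trend. Of 27 tested ligands of the TGF-beta superfamily other than Gdf15, none passed limma (4 had an unadjusted p under 0.05), with none called by edgeR and Bmp8a called by DESeq2. Their median was -0.30, with 8 above 0. Mstn, myostatin, measured 4614 ± 1294 and 2938 ± 888, and Tgfb3 2230 ± 208 and 1792 ± 394 (limma adjusted p = 0.37 and 0.53).

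**Figure D5:**
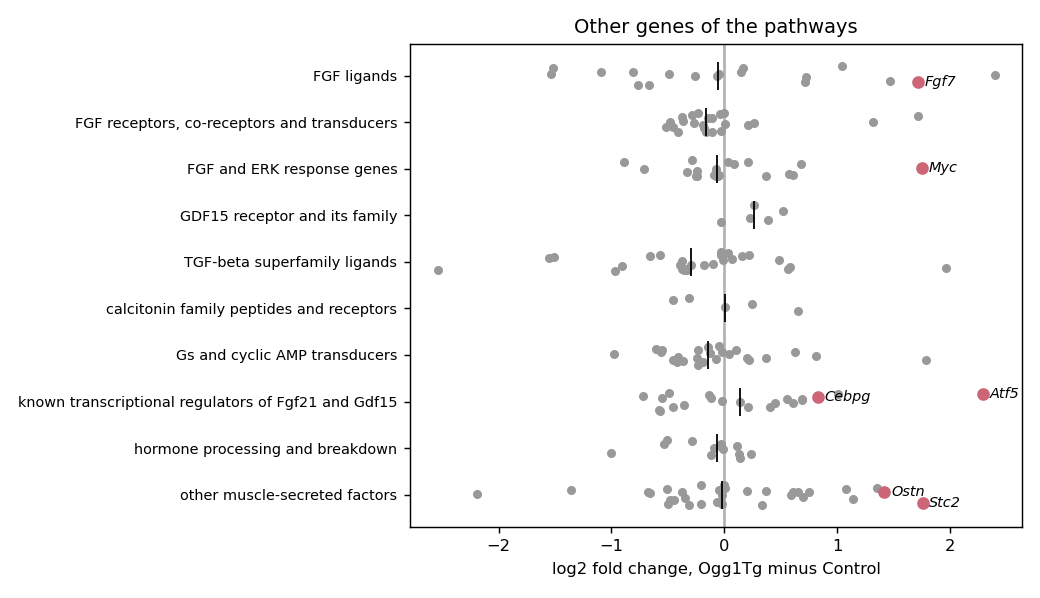
Log2 fold change (Ogg1Tg minus Control, limma) of the tested genes of 10 lists of related genes, with the genes called at an adjusted p under 0.05 in red and named, the others in grey and the median of each list as a black bar. Called genes are Fgf7, Myc, Atf5, Cebpg, Ostn and Stc2, all higher, and the list medians run from -0.30 to 0.27.

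The genes around each hormone gene were read within 50 kb of its start. Fgf21 lies on chromosome 7 from 45613886 to 45615490, and of its 5 tested neighbours Fut1 rose. Fut1, a fucosyltransferase gene that runs in the opposite direction and starts 1799 bases from the Fgf21 start, had 0 reads in Control libraries and measured 109, 126 and 105 in Ogg1Tg libraries. With 3 reads taken as the most that the Control libraries could hold together, this is at least 82.3-fold higher (limma adjusted p = 0.00041). The others, Bcat2, Izumo1, Rasip1 and Mamstr, had log2 fold changes of -0.29 to 0.98 and did not pass, nor did edgeR or DESeq2 call any of them. Gdf15 lies on chromosome 8 from 70629393 to 70632456, and none of Isyna1, Ssbp4, Lrrc25, Pgpep1 and Lsm4 passed limma, with log2 fold changes of -0.13 to 0.47. Adm2 lies on chromosome 15 from 89322720 to 89324731, and none of Sbf1, Miox, Lmf2 and Ncaph2 passed, with -0.03 to 0.28. For these 9 neighbours of Gdf15 and Adm2 0 had an unadjusted p under 0.05 and none was called by edgeR or DESeq2. No source used here says whether counting used strand.

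The genes whose values followed each hormone most closely were found by Pearson's r of log2(value + 1) over the 6 libraries among 14404 other genes with a mean of at least 10. For Fgf21 these were Dnm2, Slc7a5, Pycr1, Fut1 and Myc, with r of 0.997 to 0.993. For Gdf15 they were Tbc1d4, Slc7a5, Atf5, Fgf21 and Clic4, with r of 0.997 to 0.990. For Adm2 they were Kcnq1, Uck1, Snhg15, Lin28a and Gdf15, with r of 0.993 to 0.987. All of these values contain the difference between the groups, and 121, 122 and 73 genes had r over 0.95 with Fgf21, Gdf15 and Adm2. Likeness in this sense does not measure the size of the change, and genes with large and with small changes were among those named. Slc7a5, a large neutral amino acid transporter, went from 171 ± 31.8 to 3131 ± 572, and Uck1, a uridine kinase, measured 337, 364 and 337 in Control and 412, 400 and 423 in Ogg1Tg libraries, a log2 fold change of 0.25 ± 0.14 (SE).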

How the data were processed

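RNA from gastrocnemius was sequenced in 3 Control and 3 Ogg1Tg mice. Trimmomatic, HTSeq, SAMtools and the build mm10 appear, without versions, in the submitters' processing notes. For the aligner and the annotation the sources used here give no name. The deposited values are a signal per gene: although labelled FPKM, each is a whole read number divided by 1 factor per library (100% of values whole within 0.01), so reads were recovered for count tests. Entries without a gene name, 2.38% to 3.53% of reads, were left out. Per-length levels used GENCODE exon lengths on GRCm38, matched once for 35319 of 35474 symbols.

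Genes whose mean reached 1 in the 6 libraries were tested by limma 3.58.1 (R 4.3.3, variance trend) on log2(value + 1), two-sided, with Benjamini-Hochberg adjustment over 23312 genes and a call at an adjusted p under 0.05; 127 were called. An exact permutation test of 3 against 3 cannot go below 0.10. edgeR 4.0.16 (quasi-likelihood) and DESeq2 1.42.0 on recovered reads were among 16 alternatives, and the fits were tested on simulated data. The limma p-values set each group difference against the spread within groups of these 6 mice. The variances were drawn toward a trend over all genes.

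The members and all lists were chosen with earlier results of these data known. Named genes are the members, up to 4 called genes of each list or else its 2 with the highest mean, the 5 genes most like each hormone, and the neighbours within 50 kb. Gfral, Calcr, Adm, Fgf15, Fgf23, Fgfr2, Fgfr3, Fgfr4, Kl, Atf4, Ddit3, Ppara and genes called by DESeq2 alone fall outside that rule: they were picked with their values in view. A gene that the rule names is not reported here.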

Additional observations from a re-analysis of the deposited data

How the results depend on the processing

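Fgf21 and Gdf15 were called higher in all 16 alternatives and Adm2 in 6. The 127 genes called became 46 without a variance trend and 622 with DESeq2, and 35 to 425 with each library left out, the latter without Ogg1Tg replicate 3. The replicate numbers did not pair the libraries (same-number r across genes -0.053, -0.0051 and 0.031), and with the replicate number as a block 102 genes were called, 95 of them shared, with 0 FGF ligands and 1 regulator. Without a variance trend 0 FGF ligands, 0 regulators and 0 secreted factors were called. DESeq2 called 2 FGF ligands, 1 TGF-beta ligand, 2 cyclic AMP transducers, 5 regulators, 1 processing gene and 4 secreted factors. Median-of-ratios scaling, quantile normalization and edgeR without a filter each called 1 processing gene. With each library left out the counts were 0 to 2 FGF ligands, 0 to 4 cyclic AMP transducers, 1 to 3 regulators, 0 to 1 processing genes and 0 to 3 secreted factors. The cause of these shifts was not tested.

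Signs reversed for genes near 0. Klb ranged from -1.08 to 0.40 with each library left out (0.07 without Ogg1Tg replicate 2), and gave 0.51 and 0.51 with edgeR with and without a filter, and 0.46 with DESeq2. Ramp3 ranged from -0.0019 (without Control replicate 1) to 0.88. Crcp gave -0.0092 with quantile scaling and -0.0042, -0.10 and -0.0013 without Control replicate 3 and Ogg1Tg replicates 1 and 2, up to 0.14. With each library left out Isyna1 ranged from -0.31 to 0.44 and Lrrc25 from -0.19 to 0.90, both lowest without Ogg1Tg replicate 3. Lsm4 gave 0.020 and 0.064 without Control replicate 1 and Ogg1Tg replicate 3, -0.21 at the lowest, and 0.0088 and 0.0089 with edgeR. Sbf1 gave 0.026 and 0.12 with median-of-ratios and quantile scaling, 0.018 without Ogg1Tg replicate 3 (-0.064 at the lowest), 0.050 and 0.050 with edgeR and 0.026 with DESeq2. Miox gave -0.14 with quantile scaling and -0.25 and -0.26 without Control replicate 3 and Ogg1Tg replicate 1, up to 0.96. Lmf2 gave -0.034 and -0.078 without Control replicate 2 and Ogg1Tg replicate 1, up to 0.082, and Ncaph2 -0.033 without Ogg1Tg replicate 2, up to 0.17 without Ogg1Tg replicate 3. Depth limits the genes with few Control reads, Fgf21 with 1, Adm2 with 2 and Gdf15 with 11.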
